A study of Mus musculus with 4 samples.

Results

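Cystatins are small proteins, most of them secreted, that block cysteine proteases such as the lysosomal cathepsins. In the mouse most genes of the secreted class lie side by side in a cluster on chromosome 2, and several members of that cluster are active in the male reproductive tract. The best known there are Cst8 (Cres), a protein of the epididymis and of spermatids that lacks residues classical cystatins use against cathepsins, and Cst9 (testatin), which switches on in the fetal testis as the cords form. The 8 genes described here are Cstdc1, Cst3, Cst6, Cst8, Cst9, Cst11, Cst12 and Cst13. They were chosen by symbol, with results of the treatment comparison already known, so their levels and differences are given as a description and without a test. The array's annotation holds 7 probe sets with 1 of these symbols, 1 for each gene except Cst8, which is not analysed here, out of 45101 probe sets and 18193 genes with a single symbol. In the RefSeq gene table of GRCm38.p6, Cst6 lies on chromosome 19, so it belongs to the family but not to the cluster, and 6 of the 7 measured genes are on chromosome 2.

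The tissue was whole testis from strain 129 mice at 2 days post partum (dpp), held in organ culture for 24 h with WIN 18,446 at 1 µM or with dimethyl sulfoxide, its vehicle, in 2 samples per group. WIN 18,446 is known to block retinaldehyde dehydrogenases, which make retinoic acid. The labels do not say whether the samples were separate animals or cultures, so the spread behind each p-value may be no more than technical. RNA was read on Affymetrix Mouse Genome 430 2.0 arrays, and all levels are the authors' normalised log2 values.

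The expected cells of the testis were present by their markers. All 12 Sertoli cell markers and all 6 germ cell markers with a probe set reached the level of 5 at which probe sets were tested, as did 4 of 4 Leydig, 3 of 3 peritubular and 3 of 4 endothelial markers, against 2 of 9 leukocyte and 1 of 9 epididymal or mesonephric ones. Of these tested markers limma called lower 5 Sertoli, 1 germ cell, 1 peritubular and 1 endothelial gene. Of all 10970 tested genes, 3.46% were called lower. It called 0 Leydig (2 at an unadjusted p under 0.05), 0 leukocyte (0) and 0 epididymal (0) genes. Over all 20895 probe sets tested, 4598 had an unadjusted p under 0.05. The germ cell gene called was Sall4 (-0.60). In contrast, 3 germ cell markers, Ddx4 (0.24), Dazl (0.29) and Dnd1 (0.43), were higher on both treated arrays, and the median over the 6 was 0.13. None of the tested markers was called higher. On treated array 1 a control probe set for the 5′ end of 18S ribosomal RNA read 6.55, against 8.12 to 8.67 on the other 3 arrays, so that array stands apart in this control.

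The order of the genes on chromosome 2 is Cst11, Cstdc1, Cst12, Cst8, Cst13, Cst9, Cstdc2 and Cst3. Their promoters show how far close neighbours share sequence at their starts. RefSeq promoter sequences of GRCm38.p6, from 250 bases before the annotated start to 50 after it, were found for 6 of the 8 genes. Those 4 are shown whose transcripts were bright on the vehicle arrays. In the first 2, capitals mark a stretch of 24 bases that Cstdc1 and Cst12 share with 22 identical bases. In Cst9 they mark a match to TGATAA and in Cst3 a match to AGGTCA on the opposite strand.
Cstdc1, chr2:148781759-148782058, plus strand: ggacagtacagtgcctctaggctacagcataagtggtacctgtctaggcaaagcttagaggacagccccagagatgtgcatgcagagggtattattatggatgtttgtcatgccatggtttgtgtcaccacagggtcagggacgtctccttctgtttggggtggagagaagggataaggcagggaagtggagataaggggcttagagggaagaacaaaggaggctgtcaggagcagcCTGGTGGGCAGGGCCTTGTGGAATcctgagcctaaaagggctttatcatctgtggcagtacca
Cst12, chr2:148789115-148789414, plus strand: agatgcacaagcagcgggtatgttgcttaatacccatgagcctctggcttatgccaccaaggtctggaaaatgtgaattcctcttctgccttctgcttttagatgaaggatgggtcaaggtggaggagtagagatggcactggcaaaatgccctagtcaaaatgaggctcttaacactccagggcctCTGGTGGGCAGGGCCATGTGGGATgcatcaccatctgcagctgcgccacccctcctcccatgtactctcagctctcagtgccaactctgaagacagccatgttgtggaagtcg
Cst9, chr2:148834897-148835196, plus strand: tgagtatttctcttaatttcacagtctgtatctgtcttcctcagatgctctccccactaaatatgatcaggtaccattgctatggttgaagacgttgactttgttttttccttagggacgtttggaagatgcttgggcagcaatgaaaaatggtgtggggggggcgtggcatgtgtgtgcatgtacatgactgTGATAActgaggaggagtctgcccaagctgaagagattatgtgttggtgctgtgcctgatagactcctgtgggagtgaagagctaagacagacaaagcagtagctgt
Cst3, chr2:148875463-148875762, minus strand: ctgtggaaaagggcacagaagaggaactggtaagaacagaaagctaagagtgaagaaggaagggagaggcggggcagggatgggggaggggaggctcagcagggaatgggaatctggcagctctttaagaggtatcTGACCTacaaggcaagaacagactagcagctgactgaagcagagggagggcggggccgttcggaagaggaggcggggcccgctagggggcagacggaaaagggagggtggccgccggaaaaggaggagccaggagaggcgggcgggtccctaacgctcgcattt

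Cstdc1, whose RefSeq synonym is Cst14, had the widest separation between the groups of the 7 measured genes. Its probe set, 1451712_at, read 13.99 and 13.88 with vehicle and 10.44 and 10.24 with WIN 18,446 (log2 levels). Both treated arrays lay 3.43 log2 units or more below both vehicle arrays, while the arrays of 1 group lay within 0.11 (vehicle) and 0.20 (treated) of each other. The means were 13.93 ± 0.08 with vehicle and 10.34 ± 0.14 with WIN 18,446 (SD, n = 2), a log2 difference of -3.59 or a level 12.1-fold lower. The treated level, at 8.29% of that with vehicle, was still far above the highest bacterial control probe set (2.22), which has no target in mouse RNA and marks background here. Among the 20895 probe sets tested, 30 had a more negative difference than Cstdc1. Probe sets with a mean level under 5 were not ranked, and some of them, such as that of Cgn (-3.64), had a more negative difference too. In whole testis, fewer cells of a type and less RNA per cell cannot be told apart, and this holds for each difference below.

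Cst12, Cst9 and Cst3, on the other side of Cstdc1 from Cst11, were bright and differed far less. Cst12, listed in RefSeq as CRES3, read 15.45 and 15.38 with vehicle and 15.12 and 15.10 with WIN 18,446, so that both treated arrays were lower, by a mean of 0.30 on the log2 scale (81.3% of the vehicle level). Testatin, Cst9, read 15.01 and 14.95 with vehicle and 14.68 and 14.73 with the compound. The treated arrays of Cst9 were lower too, by a mean of 0.27 (82.7% of the vehicle level). Cst3, or cystatin C, a secreted cathepsin inhibitor made in many tissues, read 14.90 and 14.87 with vehicle and 14.84 and 14.91 with WIN 18,446. Its groups overlapped, and its log2 difference was -0.01. All of these values lie toward the top of the scale, where the highest value in the table is 16.24, and whether the scale compresses their differences was not tested.

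Cst11 was weakly detected. This gene, a relative of Cst8 known from the epididymis, read 6.68 and 5.83 with vehicle and 4.72 and 5.53 with WIN 18,446. The groups did not overlap, but the 0.31 log2 units between the nearest arrays of the groups was smaller than the distance within each group, 0.85 for vehicle and 0.80 for treated arrays. The log2 difference of -1.13 was -0.71 without vehicle array 1, -0.73 without treated array 1, -1.56 without vehicle array 2 and -1.53 without treated array 2. Of the 9 epididymal and mesonephric markers with a probe set, 6 were at or below 2.22 on all 4 arrays, among them the epididymal lipocalins Lcn5, Lcn8, Lcn9 and Lcn12, and 1 was tested, Eppin, with a log2 difference of 0.09. Emx2, a homeobox gene of the urogenital ridge, was under the level tested and read 3.93 and 4.43 with vehicle and 3.11 and 3.07 with WIN 18,446, lower on both treated arrays. Pax8, a mesonephric transcription factor, read 2.16 and 3.87 with vehicle and 2.19 and 2.31 with the compound, so that 1 vehicle array stood apart and the groups overlapped. The log2 of the summed linear level of all 9, to which Eppin (9.61 to 9.96) gives most, was 9.80 and 9.77 with vehicle and 9.68 and 10.01 with WIN 18,446. The part of such cells in the Cst11 difference was not tested.

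Cst13 and Cst6 were at background. Cst13, a cystatin known from the testis, read 2.12 and 2.39 with vehicle and 2.06 and 2.07 with WIN 18,446, of which 1 vehicle value exceeded 2.22. Cst6, or cystatin E/M, known from skin as an inhibitor of legumain, read 2.14 and 2.12 with vehicle and 2.12 and 2.13 with WIN 18,446. For both genes the array gives only an upper bound of the level, and no fold or direction is read. In all, both treated arrays lay below both vehicle arrays in 5 of the 7 probe sets, the background values of Cst13 included. Over all 45037 probe sets other than controls this was so for 19.6%, and since the genes were chosen with these values known, nothing is read from the count.

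**Figure D1:**
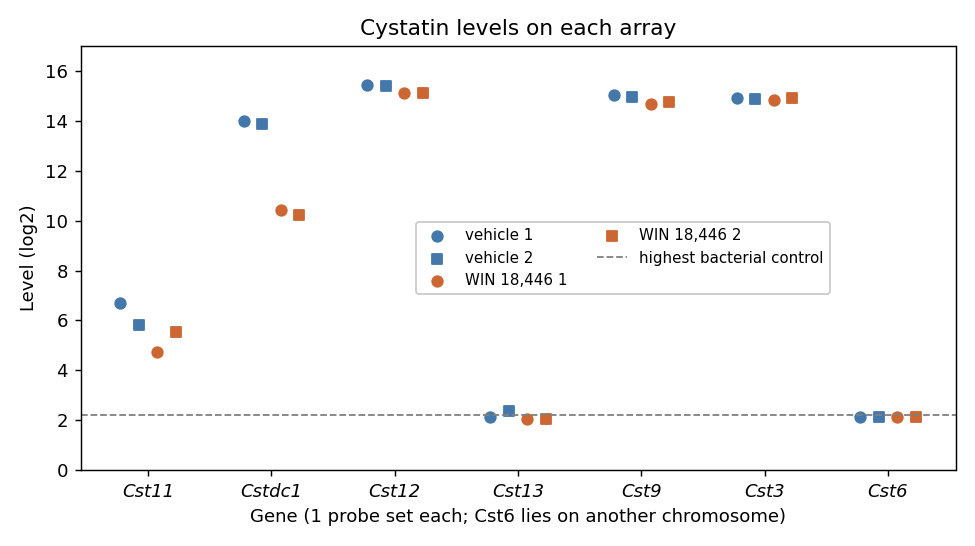
Level of each measured cystatin on each of the 4 arrays (y axis, log2), 1 probe set per gene, with circles for replicate 1 and squares for replicate 2 and the highest bacterial control probe set as a dashed line at 2.22. Cstdc1 lies near 13.93 with vehicle and near 10.34 with WIN 18,446, Cst12, Cst9 and Cst3 stay above 14.6 on all arrays, and Cst13 and Cst6 lie at the dashed line.

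Of the 12 Sertoli cell markers, all tested, limma called 5 lower with WIN 18,446 and 7 not at all. Those called were Cldn11 (-1.25), Sox9 (-1.15), Sox8 (-0.82), Wt1 (-0.58) and Dhh (-0.43), while 3.46% of all tested genes were called lower. The differences of all 12 spanned -1.25 to 1.25, the upper end being Amh, which was not called (limma adjusted p = 0.0575), and Gata4 differed by 0.02. The log2 of the list's summed linear level was 17.18 and 17.14 with vehicle and 16.98 and 16.92 with WIN 18,446. The part of such cells in the Cstdc1 difference was not tested.

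Genes around the cluster were examined to see whether the low level of Cstdc1 was shared along the chromosome. Beyond Cst11 and Cst3, the 10 nearest protein-coding genes on each side and Cstdc2, which lies between Cst9 and Cst3, make 21 neighbours, of which 15 have a probe set and 6 were tested. limma called 0 of these 6, against 6.4% of the 10970 genes tested. At an unadjusted p under 0.05 there were 4, against 4598 of all 20895 probe sets tested. The median log2 difference of the 6 was -0.11, against -0.02 over all genes tested. On the side of Cst11, the vesicle fusion factor Napb read 9.58 and 9.51 with vehicle and 8.91 and 8.92 with WIN 18,446, a log2 difference of -0.63 (limma adjusted p = 0.0754). The RNA export factor Nxt1 differed by 0.28 (limma adjusted p = 0.138) and Cd93, a surface protein of endothelial cells, by -0.75 (limma adjusted p = 0.179). A dimmer probe set of Cd93 read 7.75 and 8.94 with vehicle and 7.14 and 7.38 with WIN 18,446, a difference of -1.08 (limma adjusted p = 0.216). Dimmer probe sets of Napb that were tested had differences of 0.16 (limma adjusted p = 0.889) and 0.18 (limma adjusted p = 0.696). The thrombin receptor thrombomodulin, Thbd, differed by 0.28 (limma adjusted p = 0.178) and the zinc finger gene Gzf1 by -0.14 (limma adjusted p = 0.551). Directly beside the described genes, Cstdc2 was at background on all arrays (mean level 2.10), and Cstl1 and the noncoding gene Gm1330 are not analysed here. Cst10, the next protein-coding gene after Cst3 and itself a cystatin, was at background too (2.03).

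**Figure D2:**
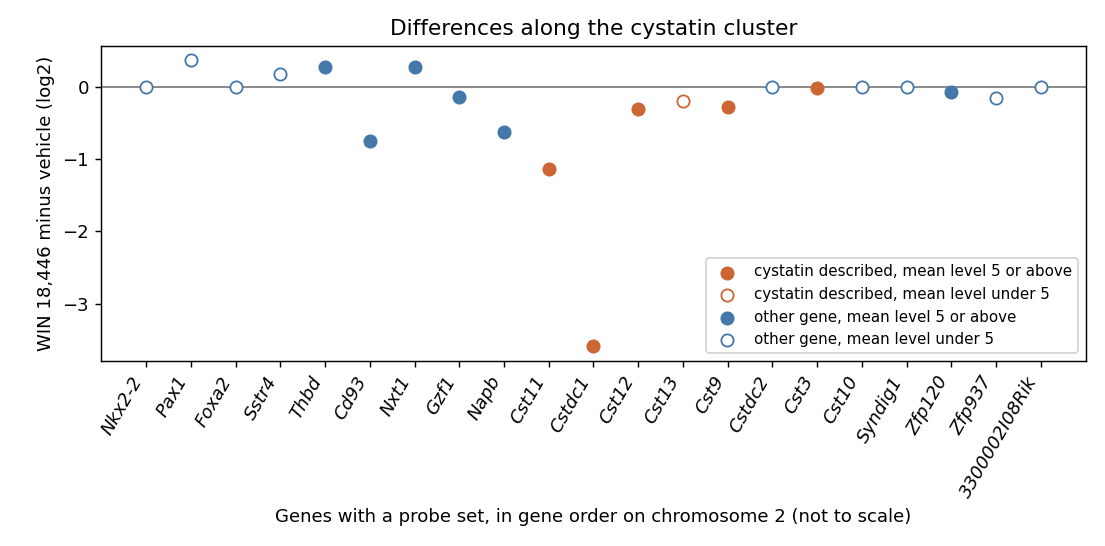
WIN 18,446 minus vehicle difference (y axis, log2) of the cystatins (orange) and their neighbours (blue) with a probe set, in gene order along chromosome 2 and not to scale. Filled points are genes with a mean level of 5 or above over the 4 arrays, open points are genes under it. Cstdc1 at -3.59 stands between Cst11 at -1.13 and Cst12 at -0.30, and the tested neighbours, each by its brightest probe set, lie between -0.75 and 0.28.

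The promoters printed above were compared as a description. Among 32840 other promoters of the same length, none had a higher local alignment score with that of Cst12 than Cstdc1, while with that of Cstdc1 the score of Cst12 ranked 7th. The shared stretch begins 13 bases before the annotated start of Cstdc1 and ends 10 after it, whereas in Cst12 it runs from 63 to 40 bases before the start. Its longest identical run, ctggtgggcagggcc, is found on either strand in 3 of 32841 promoters, those of both genes included. The transcripts of these genes, Cstdc1 and Cst12, differed by -3.59 and -0.30 in the treated samples. The promoter of Cst9 had no comparable likeness to that of Cstdc1: 16 of 20 aligned bases were identical, and its score ranked 7165th.

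Short motifs were searched in the promoters on both strands. The half-site of many nuclear receptors, those for retinoic acid among them, was taken as AGGTCA. It stood in the promoters of Cst3, Cst8 and Cst13 and in 16.3% of all promoters. Variants of this half-site were not searched, so promoters without a match may still hold one. The direct repeat of this half-site with 5 bases between the copies was found in 0 of the 6 cystatin promoters and 0.00913% of all. At so low a share its absence from these promoters tells nothing. A site of the Nr5a1 type, which holds the same half-site and was written CAAGGTCA, stood in that of Cst8 and in 1.56% of all. For GATA factors the motif TGATAA stood in those of Cst9 and, on the opposite strand, Cstdc1, and in 9.05% of all. A second form of it, AGATAA, stood in that of Cstdc1 and in 11.2% of all. The letters of the TATA box, written TATAAA and held by 13.6% of all promoters, had a match in Cst13. That match was on the opposite strand, starting at base 43 of the window, in its part far before the annotated start. Whether it acts as a TATA box was not tested. For SOX factors the motif AACAAT, held by 10.7% of all, had no match in these 6. This says only that these letters are not in this window, and no other form of the motif was searched.

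Genes with a pattern most like that of Cstdc1 over the 4 arrays were found by the root mean square distance between log2 values centred on each probe set's mean, among 34944 other probe sets with 1 symbol. The closest was Nr0b1, an orphan nuclear receptor of Sertoli and steroidogenic cells encoded on the X chromosome, at a distance of 0.06 log2 units. It read 11.68 and 11.62 with vehicle and 8.09 and 7.82 with WIN 18,446. Next came Dnase1l2, a deoxyribonuclease (0.10), Rassf10, a Ras association domain protein (0.12), Cgn, the tight junction protein cingulin (0.12), Wt1os, an RNA antisense to Wt1 (0.17), and Prelp, a matrix proteoglycan (0.18). All 6 had groups that did not overlap, which the measure of likeness fixes. The differences of the first 5 ran from -3.38 to -3.69. The measure fixes this closeness to Cstdc1 as well, since the values were centred but not scaled. Prelp read 5.62 and 5.20 with vehicle and 2.07 and 2.08 with WIN 18,446, at background on both treated arrays. With the highest bacterial control taken as the treated level, Prelp was at least 9.17-fold lower. Wt1, on the other strand from Wt1os, differed by -0.58 against -3.38 for Wt1os. Dnase1l2, Cgn and Prelp had means under 5 over the 4 arrays and were not tested. None of the other cystatins was close by this measure: Cst11 came 659th at 1.31, and the others lay at 1.65 to 1.80. These distances follow from their smaller differences and add nothing to them.

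**Figure D3:**
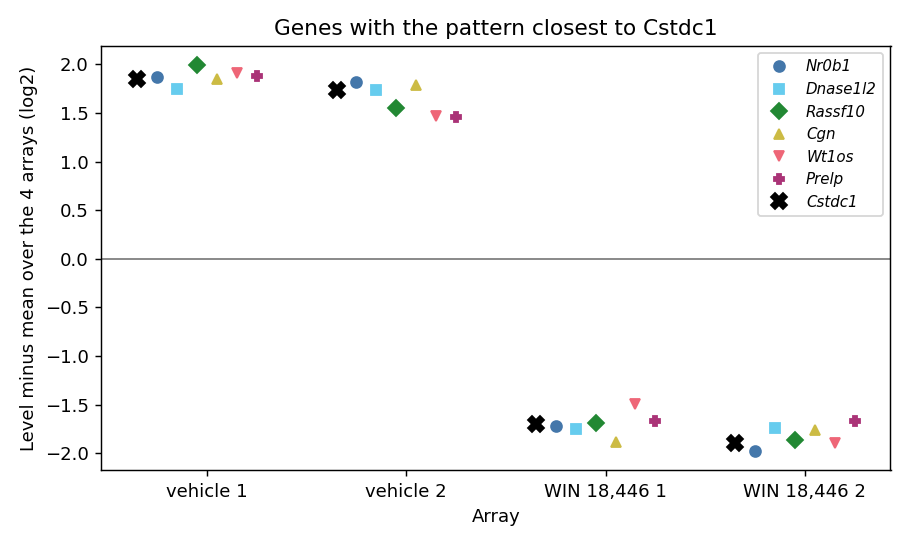
Level on each array minus the mean over the 4 arrays (y axis, log2) for Cstdc1 (black crosses) and the 6 genes closest to it. On the treated arrays all 7 genes lie more than 1 log2 unit below their own mean, and Nr0b1 is nearest to Cstdc1. The treated values of Prelp are at background.

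Cysteine proteases, the enzymes cystatins act on, were for the most part not called. Of 19 listed genes, all with a probe set, 10 were tested, and 8 were at background on all 4 arrays: Ctsw, a cathepsin of lymphocytes, and Cts3, Cts6, Cts7, Cts8, Ctsj, Ctsq and Ctsr, cathepsins of the rodent placenta. limma called 1 gene lower and 0 higher, against 3.46% and 2.94% of all genes tested, and the median log2 difference was -0.11, against -0.02 over all genes. The gene called was Lgmn, encoding legumain, a protease that cuts after asparagine and that cystatins C and E/M are known to block. It read 12.30 and 12.06 with vehicle and 11.42 and 11.21 with WIN 18,446, and both treated arrays lay below both vehicle arrays. Its log2 difference was -0.87 (SE 0.13, limma adjusted p = 0.0306), a level of 54.8% of that with vehicle. Without vehicle array 1 the adjusted p was 0.314, and without vehicle array 2 it was 0.183, as limma called no probe set at all without either.

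The cathepsins read as follows. Ctsl, cathepsin L, which Sertoli cells are known to secrete, read 15.11 and 15.12 with vehicle and 15.23 and 15.26 with WIN 18,446 (log2 difference 0.13, limma adjusted p = 0.144). A second, dimmer probe set of Ctsl read 9.39 and 9.79 with vehicle and 10.33 and 10.20 with the compound (limma adjusted p = 0.103). Both probe sets were higher on both treated arrays. Ctsh and Ctsb, lysosomal cathepsins, had differences of -0.17 and -0.03 with overlapping groups, and Ctsz, cathepsin Z, had -0.08 (limma adjusted p from 0.549 to 0.9). Dimmer probe sets of Ctsb (-0.33 and -0.26) and Ctsz (-0.20 and -0.23) were lower on both treated arrays. None of these was called (limma adjusted p from 0.206 to 0.458). Another dimmer probe set of Ctsb (-0.04) and the dimmer probe set of Ctsh (-0.18) had overlapping groups. Ctsc, the dipeptidyl peptidase that activates granule proteases, was at -0.26 (limma adjusted p = 0.471).

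Among other genes with a cystatin-like domain, the stefin Stfa2l1 had a larger difference than Cstdc1. Of 28 listed genes 16 have a probe set under their own symbol, and 4 were tested, of which limma called 2 lower, 0 higher and 2 not at all, while 3.46% of all tested genes were called lower and 2.94% higher. Stfa2l1, a stefin (a cystatin of the intracellular class), read 8.00 and 8.07 with vehicle and 3.19 and 3.21 with WIN 18,446. It was 28.5-fold lower (log2 difference -4.83, SE 0.22, limma adjusted p = 0.00394). Its mean of 5.62 passed the level filter only through the vehicle arrays, so the test adds nothing to the levels printed here. The 2 genes called lower include it, so nothing is read from that count beside the share over all genes. Stfa3, another stefin, read 7.07 and 6.87 with vehicle and 2.21 and 2.24 with WIN 18,446, so that the treated arrays lay at or barely above the highest bacterial control (2.22) and no fold is given. Its mean over the 4 arrays lay under 5, so that it was tested only under another level filter, given below. The Stfa stefin genes are closely related copies, and how far their probe sets read each other's transcripts was not tested.

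The mouse stefins of this group are known from neutrophils. Of 9 leukocyte markers 7 had a mean level under 5, and neither of the 2 tested was called. Lyz2, the lysozyme of myeloid cells, read 11.00 and 11.24 with vehicle and 10.13 and 10.87 with WIN 18,446 (log2 difference -0.62, limma adjusted p = 0.249). C1qb, a complement component of macrophages, read 7.94 and 8.72 with vehicle and 7.68 and 8.59 with the compound (log2 difference -0.19, limma adjusted p = 0.827). Itgam and C1qa were at background on all 4 arrays, and Ptprc, the common leukocyte antigen CD45, on 3, with 3.72 on treated array 1. The log2 of the list's summed linear level was 11.19 and 11.51 with vehicle and 10.44 and 11.17 with WIN 18,446. Their part in the stefin differences was not tested. Ngp, a neutrophil granule protein with a cystatin-like domain, read 2.01 to 2.02 on all arrays, and Camp, the cathelicidin of neutrophils, read 2.28 on vehicle array 1 and 2.05 on each of the others.

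The second gene called on this list was Rarres1, a gene induced by retinoic acid whose product resembles latexin, at 11.89 and 11.76 with vehicle and 11.13 and 11.16 with WIN 18,446. Its log2 difference was -0.68 (SE 0.09, limma adjusted p = 0.0288), a level of 62.6% of that with vehicle. Without treated array 1 its adjusted p was 0.0595, and without vehicle array 1 or 2 it was 0.312 or 0.188. The same arrays gave Stfa2l1 0.241 without vehicle array 1 and 0.164 without vehicle array 2. Latexin itself (Lxn), an inhibitor of carboxypeptidases, differed by -0.11 (limma adjusted p = 0.492). Cstb, the intracellular inhibitor cystatin B, read 14.46 and 14.43 with vehicle and 14.44 and 14.46 with WIN 18,446. The groups of Cstb overlapped, with a log2 difference of 0.01 (limma adjusted p = 0.968). The median over the 4 tested genes, Stfa2l1 included, was -0.39, against -0.02 over all genes tested.

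**Figure D4:**
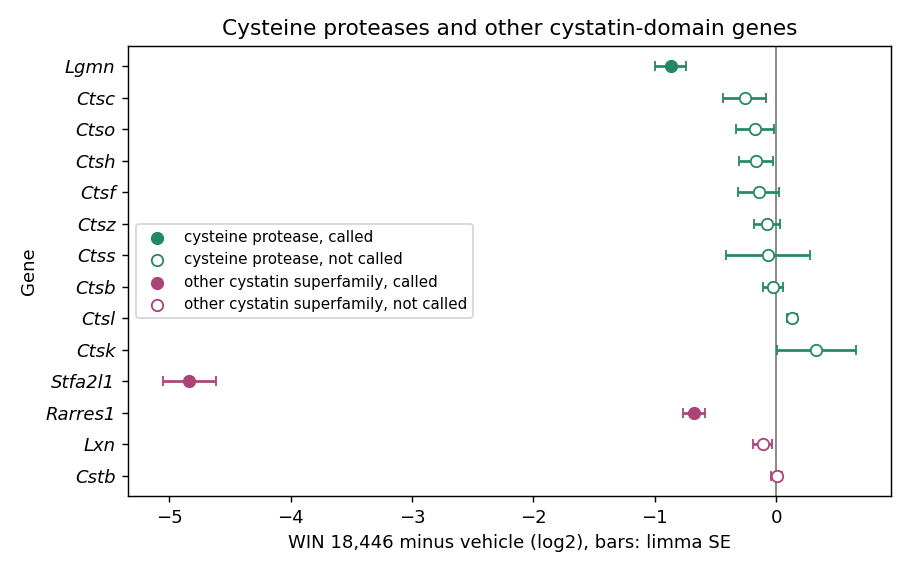
WIN 18,446 minus vehicle difference (x axis, log2) with limma's SE for the tested cysteine proteases (green) and other genes with a cystatin-like domain (purple), filled where called. Stfa2l1 at -4.83, Lgmn at -0.87 and Rarres1 at -0.68 are filled. Stfa2l1 passed the level filter only through its vehicle arrays. The cathepsins, each by its brightest probe set, lie between -0.26 and 0.33.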

How the data were processed

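Per the submitters' processing notes the authors used RMA and GCRMA, with no version and without saying which made the deposited log2 values, 1 column per array, which were already normalised between arrays. With 2 arrays per group precision is limited. Probe sets were named through GEO's array annotation: of 45037 probe sets other than controls, 34945 have 1 symbol, 932 several and 9160 none here. Of the 10970 genes tested, 10939 matched the RefSeq table by gene ID. The 20895 probe sets whose mean level reached 5 were fitted with lmFit and eBayes of limma 3.58.1 (R 4.3.3), with a variance trend and a two-sided test. Benjamini-Hochberg adjustment ran over all of them, and an adjusted p under 0.05 is called: 1083 probe sets, 5.18%. Differences are WIN 18,446 minus vehicle. A gene on a list is represented by its tested probe set of highest mean. Lists covered cysteine proteases, other cystatin-domain genes, genomic neighbours and the cell types of the tissue. The cystatins and the lists were chosen with earlier results of these data known. Named list genes are those called, those of smallest p and those of highest mean. Promoters were aligned locally with a match score of 2, a mismatch score of -3 and gap scores of -5 and -2. The fit was tested on simulated data. Alternatives were other level filters, normalisations and variance models, the replicate number as a block, gene means and each array left out in turn.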

Additional observations from a re-analysis of the deposited data

How the results depend on the processing

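The direction of the Cstdc1, Cst9, Cst11 and Cst12 differences was the same under every alternative run. With each array left out in turn they ranged from -3.69 to -3.49 for Cstdc1, -0.31 to -0.24 for Cst9, -1.56 to -0.71 for Cst11 and -0.33 to -0.26 for Cst12, and that of Cst3 (-0.04 to 0.02) took both signs. With array medians set equal, Cst12 was at -0.34, Cst3 at -0.051 and Cst6 at -0.043, a shift that the alternative gives to every probe set. No direction is read for Cst6 and Cst13, whose levels are at background. The count of probe sets called (1083) was 3 without the level filter, 372 without a variance trend and 2216 at an adjusted p under 0.10, and ranged from 0 to 1398 with 1 array left out (0 without vehicle array 1 or 2, 664 without treated array 1). Of the cysteine proteases, 0 were called without the level filter, 0 without a variance trend, 0 to 1 with 1 array left out, and 2 with each gene's probe sets averaged, where Ctsl rose as well (log2 difference 0.40). Of the other cystatin-domain genes, 0 were called without the level filter, 1 with a mean of at least 7, 1 without a variance trend and 0 to 2 with 1 array left out. Without the level filter 45037 probe sets were tested. With at least 2 of the 4 arrays at 5 or above, 3 of 5 tested cystatin-domain genes were called. Stfa3 was among those called, and it passed that filter only through its vehicle arrays. Genomic neighbours called by limma stayed at 0 under each alternative (1 to 4 at an unadjusted p under 0.05). With the replicate number as a block, limma called 1467 probe sets, 1 protease, 2 other cystatin-domain genes and 0 neighbours, and the differences themselves cannot move in this balanced design. The deviations of same-numbered arrays correlated at 0.014 over 2 pairs, so the numbers were not taken as pairs. Genes near background cannot be resolved: 34.1% of probe sets lay at or below 2.22 on all arrays.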

Other observations

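The annotation gives a probe set to 2 genes, at least 1 of the cystatin superfamily, and no gene is named from it. This probe set read 11.12 and 11.00 with vehicle and 3.65 and 6.50 with WIN 18,446. Both treated arrays lay far below the vehicle arrays and differed from each other by 2.85 log2 units. The log2 difference was -5.98 (limma adjusted p = 0.033). A second such probe set read 2.43 to 2.59 on all arrays. Fetub, encoding the plasma protein fetuin-B, was the gene of the cystatin-domain list with the highest difference in the other direction, at 2.31 and 2.26 with vehicle and 3.25 and 2.81 with WIN 18,446, all near background and not tested.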
